A study of Mus musculus with 24 samples.

Results

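Fatty acids enter hepatocytes with the help of membrane proteins and are carried through the watery cytosol by small binding proteins. Of the 18820 genes with a probe set of their own on the array, 9 are described here, 5 fatty acid binding proteins (Fabp1, Fabp2, Fabp4, Fabp5 and Fabp7) and 4 membrane proteins of fatty acid uptake (Cd36, Slc27a1, Slc27a2 and Slc27a4). They were taken by gene symbol from probe sets that list a single gene, and a gene with several probe sets was given by the one selected on the highest mean over all livers. For Fabp5, which has 3 probe sets, all are shown. The list was drawn up with earlier results of these data known, the higher Cd36 of the Trans livers among them and possibly the diet differences of Fabp5, so its values are a description and no independent support for any difference.

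The study asked how the livers of mice respond to different types of dietary fat. Male C57Bl/6 mice (C57BL/6J in the labels), aged 4 to 6 months, were fed for 7 weeks a high fat diet with 45% of its energy as fat, and liver RNA was measured on Affymetrix Mouse Gene ST arrays, with 1 array per mouse and 8 mice per diet. Cocoa butter supplied the fat of the Saturated diet. Mice on the Cis diet ate canola oil and palm olein instead, and those on the Trans diet a soy oil that had been partially hydrogenated. All groups received a high fat diet, so each comparison is between fats. The hour at which the livers were taken is not given in the sources used here. Values are log2 expression after RMA, where a difference of 1 is a doubling.

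Fatty acid binding proteins bind long chain fatty acids in a barrel-shaped cavity and carry them to membranes, mitochondria and the nucleus. Fabp1 is the liver form and Fabp2 the intestinal form. Fabp4 is known from adipocytes, macrophages and capillary endothelium, Fabp5 from epidermis, macrophages and many epithelia, and Fabp7 from brain. Cd36 is a scavenger receptor that takes up fatty acids and oxidised lipoproteins, and it is a known target of the nuclear receptor PPARγ in fatty liver. The Slc27 family encodes the fatty acid transport proteins, which couple uptake to activation by coenzyme A. Slc27a2 is the very long chain acyl-CoA synthetase of liver, Slc27a1 is better known from muscle and fat, and Slc27a4 from the intestine. RefSeq (GRCm38.p6) places Fabp5 and Fabp4 on chromosome 3 with Pmp2 and Fabp9, a pair of other family members, between them.

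The promoters of 4 members are shown because these are the genes whose levels followed each other or a gene list from liver to liver, as described below. They are RefSeq sequences of build GRCm38.p6, each 250 bases before and 50 after a transcription start, read 5′ to 3′ on the gene's own strand. Capitals mark TGACCT, the opposite-strand reading of the nuclear receptor motif AGGTCA, and in Fabp1 also the TATA box TATAAA.
Fabp1 (chr6:71199629-71199928, plus strand): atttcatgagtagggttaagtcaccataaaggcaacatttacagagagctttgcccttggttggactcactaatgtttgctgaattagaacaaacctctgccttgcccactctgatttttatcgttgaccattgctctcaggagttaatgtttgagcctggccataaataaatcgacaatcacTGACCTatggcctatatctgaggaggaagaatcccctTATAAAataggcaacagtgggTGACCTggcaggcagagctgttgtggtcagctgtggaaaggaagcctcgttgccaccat
Fabp2 (chr3:122894822-122895121, plus strand): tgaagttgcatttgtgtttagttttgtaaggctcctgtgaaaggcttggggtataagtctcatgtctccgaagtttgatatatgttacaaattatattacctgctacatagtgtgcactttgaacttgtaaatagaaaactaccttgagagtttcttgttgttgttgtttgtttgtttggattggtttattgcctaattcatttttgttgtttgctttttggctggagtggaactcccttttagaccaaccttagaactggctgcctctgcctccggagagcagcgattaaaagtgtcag
Slc27a2 (chr2:126552774-126553073, plus strand): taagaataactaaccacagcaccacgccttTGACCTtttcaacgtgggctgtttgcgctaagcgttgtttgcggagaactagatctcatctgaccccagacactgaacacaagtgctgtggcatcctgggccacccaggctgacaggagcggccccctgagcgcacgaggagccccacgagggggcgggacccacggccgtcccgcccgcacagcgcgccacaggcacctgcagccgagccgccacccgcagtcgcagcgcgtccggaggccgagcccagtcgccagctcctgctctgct
Cd36 (chr5:17835847-17836146, minus strand): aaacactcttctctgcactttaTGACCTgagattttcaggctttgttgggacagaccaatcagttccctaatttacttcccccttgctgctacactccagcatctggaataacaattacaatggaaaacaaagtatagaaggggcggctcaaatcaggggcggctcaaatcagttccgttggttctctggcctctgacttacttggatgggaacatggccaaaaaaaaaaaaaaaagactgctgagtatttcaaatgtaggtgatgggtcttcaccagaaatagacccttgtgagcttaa

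The motif AGGTCA, searched on both strands, began at positions -67 and -9 from the start site in Fabp1, at -228 in Cd36 and at -220 in Slc27a2, and was not found in the Fabp2 window. It also lay at -171 in Fabp7, so that 4 of the 7 members with a promoter entry held it, against 16.3% of the 32851 RefSeq promoters of the same length. The TATA box, searched on the gene's strand, began at -30 in Fabp1 and in no other member with an entry, against 8.32% of all promoters. The sterol element TCACNCCAC, searched on both strands, was in 0 of the 7 members, against 1.24% of all promoters. Slc27a1 has several RefSeq starts, the third of which held the E-box CACGTG, a palindrome, at -202 (7.15% of all promoters). The pentamer CCAAT, on both strands, was in 4 of the 7 members and in 37.4% of all promoters. Members are counted by gene over all their listed starts, while the shares of all promoters are by single window. A match describes letters only, and the window shown for Cd36 is the one start that the table gives. Fabp4 and Fabp5 have no entry.

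Across the 24 arrays the median of all values lay between 2.94 and 3.06, and the median correlation of each array with the other arrays ran from 0.975 (Trans replicate 4) to 0.986, with no identical pair. Saturated replicate 2 stood apart in Fabp5, as described next, but not over the whole array, where its median correlation of 0.984 ranked 12 from the lowest. Hepatocyte markers such as Alb had list means of 12.03 to 12.31 in all livers.

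Fabp5 was the most variable member. In the Saturated livers its level was lowest at 3.60, median 6.74 and highest at 7.52. In the Cis livers it was lowest at 3.10, median 4.77 and highest at 5.61. In the Trans livers it was lowest at 4.26, median 5.31 and highest at 6.42. All 8 Cis livers and all 8 Trans livers lay below the Saturated mean of 6.44. The Cis and Saturated ranges overlapped because of 1 Saturated liver, replicate 2, at 3.60, while the other 7 lay between 6.25 and 7.52. The Trans range, up to 6.42, also overlapped that of these 7. On the linear scale the 8 Saturated livers averaged 106 ± 49.7 (SD), the Cis livers 30.6 ± 15.3 and the Trans livers 47.3 ± 24.2. In bulk liver RNA, fewer cells of a type and less RNA per cell cannot be told apart.

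With all 24 livers, Fabp5 did not pass the test in any comparison (limma, Benjamini-Hochberg over 35556 probe sets). Cis against Saturated gave a log2 difference of -1.70 ± 0.45 (SE), a 3.26-fold lower mean, with an adjusted p of 0.502. The difference for Trans against Saturated was -1.04 ± 0.45, or 2.06-fold lower (adjusted p = 0.625). For Trans against Cis it was 0.66 ± 0.45 (adjusted p = 0.855), with a 95% interval from -0.27 to 1.60, so that a doubling or no difference both lie within it. After the diet means were taken off, the SD of Fabp5 between livers was 0.958, above that of 99.5% of the probe sets.

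**Figure D1:**
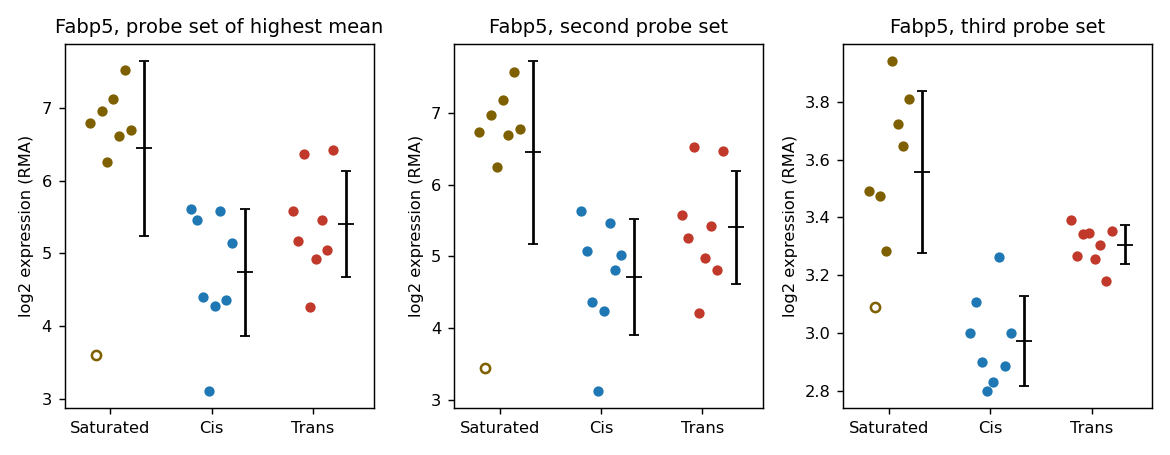
Fabp5 in each liver by diet, for its 3 probe sets (y axis, log2 expression, a scale of its own in each panel). Points are livers, the open circle is Saturated replicate 2, and the bars are the mean ± SD of 8 livers. In the first panel 7 Saturated livers lie between 6.25 and 7.52, above all 8 Cis livers, and the open circle lies at 3.60.

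The second probe set of Fabp5 carried the same pattern, with a correlation of 0.992 with the first over the livers and differences from it of at most 0.44. Saturated replicate 2 was at 3.44 there, and the other Saturated livers lay between 6.25 and 7.58. The third probe set, of low signal (a mean of 9.92 on the linear scale), correlated at 0.815 with the first. It was lowest at 3.09, median 3.57 and highest at 3.94 in the Saturated livers, lowest at 2.80, median 2.95 and highest at 3.26 in the Cis livers, and lowest at 3.18, median 3.32 and highest at 3.39 in the Trans livers. All 8 Trans livers lay above the Cis mean of 2.97, although the ranges overlapped, and the Trans livers spanned only 0.21. Its difference for Cis against Saturated, -0.58 ± 0.09, was ranked 1 by p among all probe sets of the array with 24 livers, at an adjusted p of 0.0837. For Trans against Saturated it was -0.25 ± 0.09 (adjusted p = 0.556), and for Trans against Cis 0.33 ± 0.09 (adjusted p = 0.598). The 3 probe sets list the same gene, and RefSeq also lists a pseudogene, Fabp5l2. With the diet means taken off, the third correlated at 0.705 with the first. Which locus each probe set reads was not tested, and they may share probes, so they cannot be taken as independent measurements of 1 gene.

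Leaving out Saturated replicate 2 was 1 of the 24 single-liver omissions, and it is set apart here because earlier work on these data also gave results without this liver. Its Fabp5 value is low, so that omitting it sharpens the Fabp5 comparison by construction. Without it Fabp5 fell in Cis against Saturated by 2.11 ± 0.35 on the log2 scale (adjusted p = 0.0382), 4.32-fold, with no overlap of the groups. The second probe set fell by 2.17 ± 0.34 (adjusted p = 0.0382) and the third by 0.65 ± 0.08 (adjusted p = 0.00286). These 3 probe sets were the only ones of the array called in that comparison, 0.00844% of all. For Trans against Saturated the difference of Fabp5 was -1.45 ± 0.35 (adjusted p = 0.16), and 0.045% of the probe sets were called. The third probe set passed for Cis against Saturated in 2 further omissions, of Cis replicate 6 (adjusted p = 0.034) and of Saturated replicate 4 (adjusted p = 0.0403).

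Saturated replicate 2, the liver of lowest Fabp5 in its group, was also the Saturated liver of highest Fabp7 (6.96, the others up to 6.73), Slc27a1 (4.77, the others up to 4.59), Slc27a2 (11.90, the others up to 11.74) and Slc27a4 (5.79, the others up to 5.77). It had the lowest mean over the cholesterol synthesis genes in its group, 7.46 against a group median of 8.74.

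Against this background the count over the 9 members was as follows. In Trans against Saturated 0 of 9 passed the adjusted test, against 0.00844% of all probe sets, and 5 of 9 had an unadjusted p under 0.05, against 7.32% of all probe sets. In Cis against Saturated 0 of 9 passed (0% of all probe sets) and 3 of 9 had an unadjusted p under 0.05 (6.57% of all). In Trans against Cis 0 of 9 passed (0.00281% of all) and 0 of 9 had an unadjusted p under 0.05 (6.16% of all). Without Saturated replicate 2 the unadjusted counts were 7 of 9 for Trans against Saturated (7.8% of all) and 4 of 9 for Cis against Saturated (6.74% of all). Since the members were chosen with results known, these counts describe the list. Every member had a mean signal over 20 on the linear scale. In a limma fit of only the 13020 probe sets over that signal, 1343 had an unadjusted p under 0.05 in Trans against Saturated. For Cis against Saturated 1040 did, and for Trans against Cis 938. Set against Saturated, the Trans mean was higher for 8 of 9 members, all but Fabp5, with a median difference of 0.17, while 9705 of all 18820 genes had a higher mean and their median was 0.0038. For Cis against Saturated it was again 8 of 9, with a median of 0.14, against 9669 of 18820 genes. Both comparisons use the same Saturated livers.

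**Figure D2:**
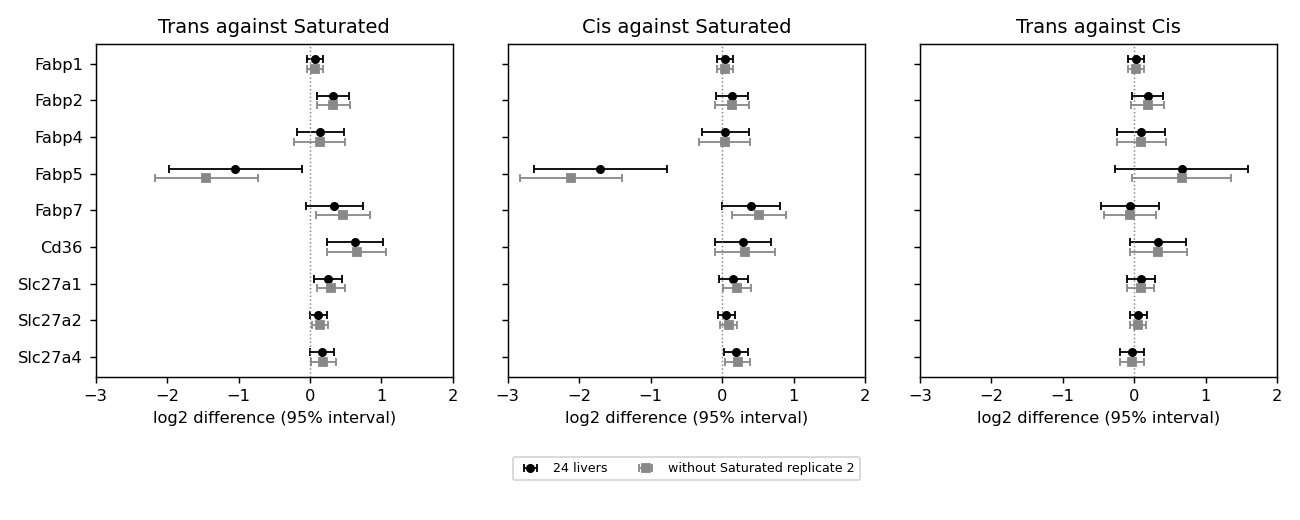
Difference in mean log2 expression of each member (x axis) in the 3 comparisons, with 95% intervals from limma, over 24 livers (black circles) and without Saturated replicate 2 (grey squares). Fabp5 lies farthest from 0 and below it in both comparisons with Saturated, and the other 8 members lie between -0.06 and 0.66.

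Fabp1, the binding protein that hepatocytes make in large amounts, hardly varied. Its level was lowest at 11.88, median 11.93 and highest at 11.99 in the Saturated livers, lowest at 11.75, median 12.00 and highest at 12.08 in the Cis livers, and lowest at 11.77, median 12.04 and highest at 12.13 in the Trans livers. The groups overlapped, and its SD between livers within diets, 0.0908, was below that of all but 2.04% of the probe sets. Trans against Saturated differed by 0.07 ± 0.05 (adjusted p = 0.821), with a 95% interval from -0.04 to 0.18.

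Fabp2, the intestinal binding protein, was lowest at 9.30, median 9.48 and highest at 9.95 in the Saturated livers, lowest at 9.11, median 9.68 and highest at 10.07 in the Cis livers, and lowest at 9.71, median 9.84 and highest at 9.96 in the Trans livers. All 8 Trans livers lay above both the Saturated mean and the Cis mean, and they were the tightest group, spanning 0.26 against 0.65 and 0.96. The mean was 0.32 ± 0.11 higher in Trans than in Saturated, which did not pass the test (adjusted p = 0.483, 8 of 8 Trans livers above the Saturated mean). The groups overlapped in all comparisons.

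Fabp4, the adipocyte binding protein, was lowest at 4.08, median 4.58 and highest at 5.56 in the Saturated livers. In the Cis livers it was lowest at 4.31, median 4.60 and highest at 5.19, and in the Trans livers lowest at 4.41, median 4.76 and highest at 5.17. The 3 groups covered one another, and Trans against Saturated differed by 0.15 ± 0.16 (adjusted p = 0.908). Of the 7 adipocyte markers measured, 4 had mean levels under the array medians, with Adipoq between 1.90 and 2.67, Lep between 1.84 and 2.84, Plin1 between 2.36 and 3.33 and Retn between 1.97 and 3.98 over the 24 livers. The other 3 lay above them, with means of 5.40 for Lipe, 10.6 for Pck1, the gluconeogenic enzyme that is also a hepatocyte marker, and 12.3 for Car3.

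Fabp7, the brain binding protein, was lowest at 5.26, median 6.12 and highest at 6.96 in the Saturated livers, lowest at 6.30, median 6.54 and highest at 6.91 in the Cis livers, and lowest at 6.14, median 6.54 and highest at 6.79 in the Trans livers. The Saturated livers held both the lowest and the highest values, so the groups overlapped. The differences from Saturated were 0.40 ± 0.19 in Cis (adjusted p = 0.759) and 0.34 ± 0.19 in Trans (adjusted p = 0.739). Without Saturated replicate 2 they were 0.52 ± 0.18 and 0.46 ± 0.18 (adjusted p = 0.559 and 0.537).

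Cd36 had the largest positive difference among the 9 members for Trans against Saturated, while for Cis against Saturated that of Fabp7 was larger. It was lowest at 7.63, median 8.47 and highest at 9.11 in the Saturated livers, lowest at 8.32, median 8.62 and highest at 9.24 in the Cis livers, and lowest at 8.47, median 9.11 and highest at 9.40 in the Trans livers. All 8 Trans livers lay above the Saturated mean of 8.35, yet the ranges overlapped. The difference for Trans against Saturated was 0.63 ± 0.19, or 1.55-fold, and missed the threshold (adjusted p = 0.403). The differences were 0.30 ± 0.19 for Cis against Saturated (adjusted p = 0.843) and 0.33 ± 0.19 for Trans against Cis (adjusted p = 0.821).

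The 3 fatty acid transport proteins differed less. Slc27a1 was lowest at 4.04, median 4.52 and highest at 4.77 in the Saturated livers, lowest at 4.52, median 4.58 and highest at 4.84 in the Cis livers, and lowest at 4.31, median 4.71 and highest at 5.02 in the Trans livers. Its groups overlapped, with differences from Saturated of 0.25 ± 0.10 in Trans (adjusted p = 0.575) and 0.16 ± 0.10 in Cis (adjusted p = 0.84). Slc27a2 was lowest at 11.52, median 11.68 and highest at 11.90 in the Saturated livers, lowest at 11.64, median 11.71 and highest at 11.91 in the Cis livers, and lowest at 11.62, median 11.81 and highest at 11.91 in the Trans livers. It too varied little, with an SD within diets of 0.1 that exceeded that of 3.41% of the probe sets, and Trans against Saturated differed by 0.11 ± 0.06 (adjusted p = 0.695). Slc27a4 was lowest at 5.51, median 5.64 and highest at 5.79 in the Saturated livers, lowest at 5.44, median 5.84 and highest at 6.19 in the Cis livers, and lowest at 5.69, median 5.79 and highest at 6.01 in the Trans livers. All 8 Trans livers lay above its Saturated mean of 5.65, with a difference of 0.17 ± 0.08 (adjusted p = 0.679), and Cis against Saturated differed by 0.20 ± 0.08 (adjusted p = 0.695).

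**Figure D3:**
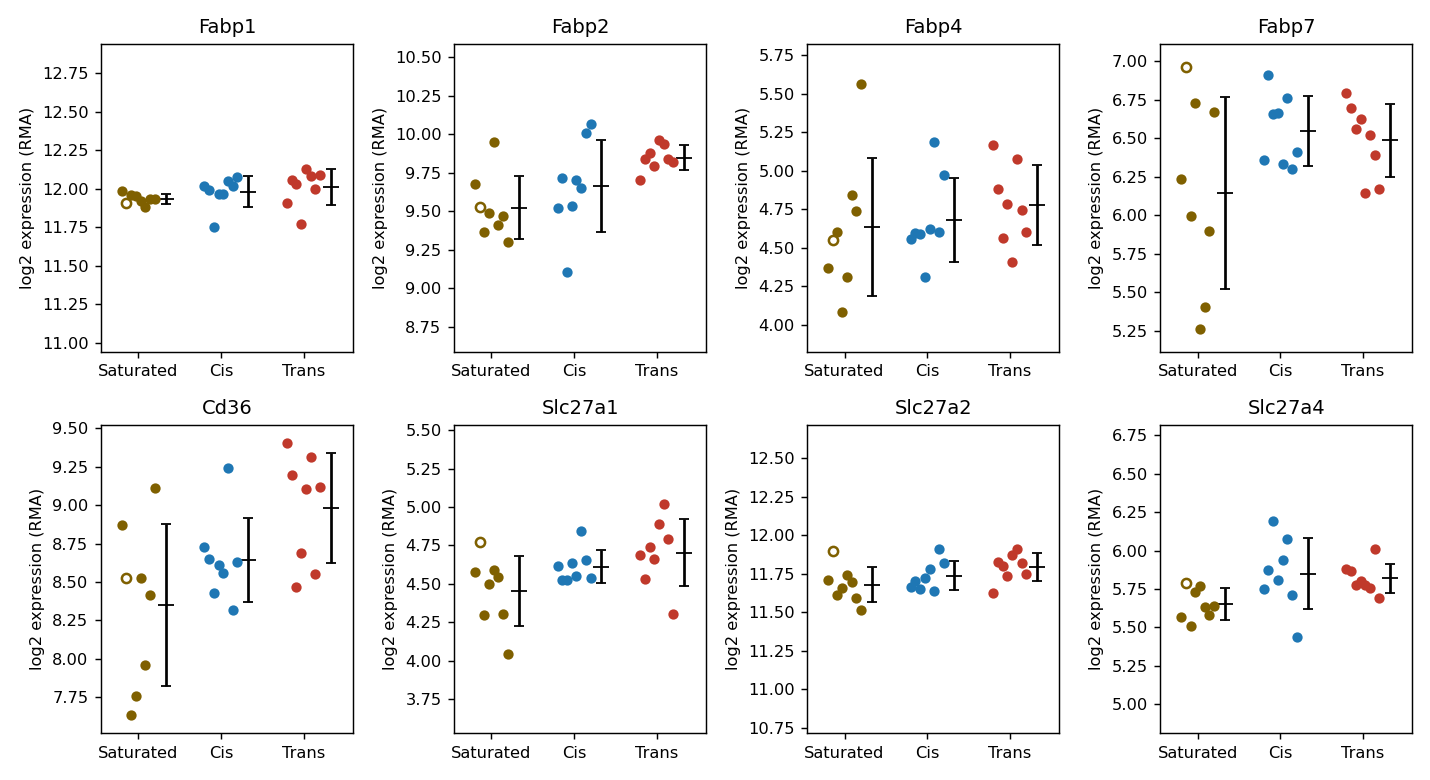
The other 8 members in each liver by diet (y axis, log2 expression, every panel spanning 2 log2 units around the middle of its gene). Points are livers, the open circle is Saturated replicate 2, and the bars are the mean ± SD of 8 livers. Fabp1 and Slc27a2 lie in narrow bands, Fabp4, Fabp7 and Cd36 are spread widest in the Saturated livers, and the 3 diets overlap in all 8 panels.

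Of the 8 other family genes, 0 had an unadjusted limma p under 0.05 in each comparison, against 6.16% to 7.32% of all probe sets. They were Fabp3 of heart, Fabp6 of ileum, Fabp9, Fabp12, Pmp2 of myelin, Slc27a3, Slc27a6 and Slc27a5, the bile acid CoA ligase of liver. Their adjusted p was 0.795 or more in all 3 comparisons. All but Slc27a5 had levels under the array medians in every liver, so for them the lack of a difference says little. Slc27a5 differed by -0.03 ± 0.07 between Trans and Saturated (adjusted p = 0.962). Of 15 measured genes of fatty acid activation and supply, 0 passed the adjusted test. Angptl8, a secreted inhibitor of lipoprotein lipase activity, differed by -0.88 ± 0.33 between Trans and Saturated (adjusted p = 0.554), and Acsl4, which activates arachidonic acid, differed by -0.41 ± 0.15 between Cis and Saturated (adjusted p = 0.642). Lpl, which releases fatty acids from lipoproteins, differed by 0.03 ± 0.20 between Trans and Saturated (adjusted p = 0.988). Among 10 measured nuclear receptors and partners, Ppargc1a, a coactivator of oxidative metabolism, had the smallest p, with -0.51 ± 0.14 for Cis against Saturated (adjusted p = 0.502). Pparg differed by 0.26 ± 0.13 and Ppara by 0.18 ± 0.09 between Trans and Saturated (adjusted p = 0.698 for each).

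Gene lists of lipid metabolism also held no adjusted call in limma with 24 livers. Of 15 measured PPARα targets, 14 had the higher mean in Trans when set against Saturated, with a median difference of 0.29, and 10 of 15 had an unadjusted p under 0.05, against 7.32% of all probe sets. Vnn1, a pantetheinase, differed by 0.61 ± 0.15 (adjusted p = 0.254) and Acaa1b, a peroxisomal thiolase, by 0.31 ± 0.07 (adjusted p = 0.219). Of 11 measured PPARγ targets and lipid droplet genes, 7 had a higher mean in Trans and 9 in Cis than in Saturated. Cidec, which fuses lipid droplets, led them with 1.57 ± 0.37 in Trans (adjusted p = 0.219) and 1.24 ± 0.37 in Cis (adjusted p = 0.579). All 17 measured cholesterol synthesis genes had a lower mean in both Trans and Cis than in Saturated, with median differences of -0.73 and -0.57, as Fabp5 had. The unadjusted p was under 0.05 for 17 of 17 in Trans (7.32% of all probe sets) and for 14 of 17 in Cis (6.57%). Idi1, the isopentenyl diphosphate isomerase, differed by -1.19 ± 0.26 in Trans (adjusted p = 0.202) and by -0.80 ± 0.26 in Cis (adjusted p = 0.63).

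How the members varied from liver to liver was examined with the diet means taken off. Over the 36 pairs of members the correlation ran from -0.487 to 0.626 with a median of 0.0346, 19 positive and 17 negative, and 2 pairs passed a permutation test of Pearson's r within diets with adjustment over the 36. Fabp2 and Slc27a2 varied together (r = 0.626, Spearman's rho = 0.797, adjusted permutation p = 0.041 and 0.00108, n = 24). Their r was 0.499 within Saturated, 0.773 within Cis and 0.941 within Trans, 0.671 without the 2 livers farthest from the Fabp2 median, and 0.727 without Saturated replicate 2. Fabp1 and Fabp2 had r = 0.546 (adjusted permutation p = 0.041) and rho = 0.48 (adjusted permutation p = 0.133). Their r was 0.092 within Saturated, 0.831 within Cis and 0.681 within Trans, and 0.383 without Cis replicate 3 and Trans replicate 4, the farthest livers, on which the pooled r rested in part. The neighbours Fabp4 and Fabp5 had r = 0.195 (adjusted permutation p = 0.681).

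Each member was then set against the mean of 7 gene lists, 63 relations in all, of which 5 passed after adjustment. Fabp5 followed the cholesterol synthesis genes (r = 0.82, rho = 0.762, adjusted permutation p = 0.00357 and 0.00157, n = 24). The r was 0.924 within Saturated, where it was 0.57 without replicate 2, 0.568 within Cis and 0.865 within Trans. Over all diets it was 0.749 without the 2 livers farthest from the Fabp5 median, and 0.671 without Saturated replicate 2 (adjusted permutation p = 0.0219). By gene, r with Fabp5 ran from 0.367 for Ebp to 0.87 for Sqle over the 17 genes, with a median of 0.742, and the median was 0.548 without Saturated replicate 2. Among 8298 genes with a mean signal of at least 20, the 5 most like Fabp5 within diets were Sqle (r = 0.87), Hmgcs1 (0.83), Rdh11 (0.824), Tm7sf2 (0.807) and Nsdhl (0.806), of which 4 are on the cholesterol synthesis list. They were picked for their r, so these values carry no test.

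**Figure D4:**
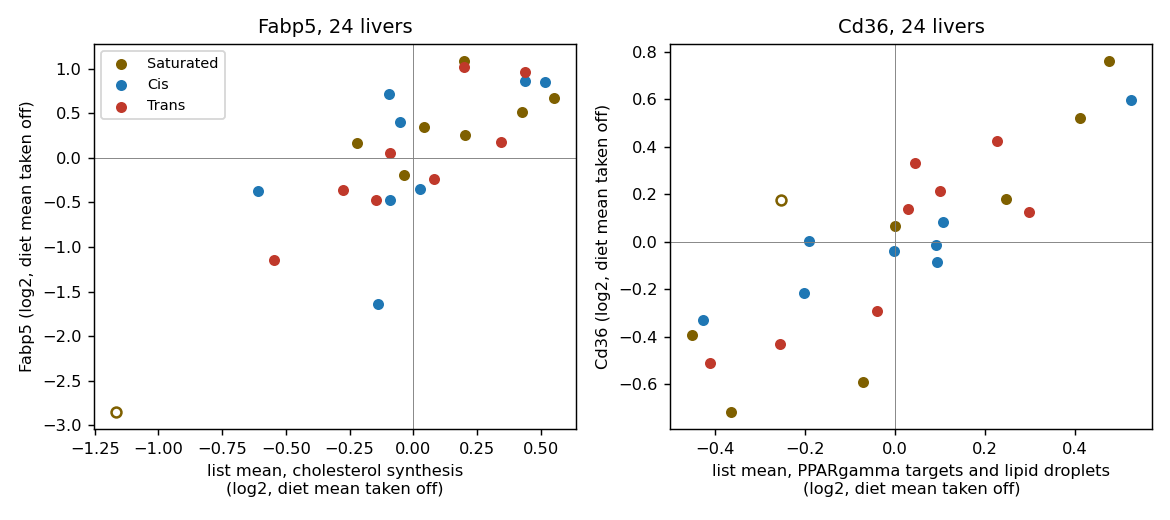
Left, Fabp5 (y axis) against the mean of 17 cholesterol synthesis genes (x axis). Right, Cd36 against the mean of 11 PPARγ targets and lipid droplet genes. Each point is 1 of 24 livers, in log2 units with its diet mean taken off, and the open circle is Saturated replicate 2. The points rise together in both panels (r = 0.82 and 0.833), and the open circle is the lowest of the left panel on both axes.

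Cd36 followed the PPARγ targets and lipid droplet genes (r = 0.833, rho = 0.819, adjusted permutation p = 0.00063 and 0.00157, n = 24), the raw p of 1e-05 for r being the smallest that 100000 permutations can give. The r was 0.818 within Saturated, 0.91 within Cis and 0.854 within Trans, and 0.789 without the 2 livers farthest from the Cd36 median. By gene, r was 0.742 for Mogat1, a monoacylglycerol acyltransferase, 0.728 for Cidec and 0.643 for Fitm1, but 0.0483 for Lpin1 and 0.0189 for Pnpla2, the adipose triglyceride lipase. With the PPARα targets r was 0.559 (adjusted permutation p = 0.055). The 5 genes most like Cd36 were Wwtr1 (r = 0.854), Lgals1 (0.844), Suclg2 (0.833), Aldh1a7 (0.831) and Ctsd (0.817), again without a test.

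Cd36 also followed the markers of lipid-associated and monocyte-derived macrophages (r = 0.659, rho = 0.695, adjusted permutation p = 0.00063 and 0.00315), cells in which it is itself expressed. Of 9 such markers 7 were measured, and their mean lay between 3.35 and 3.84 in the Saturated livers, between 3.39 and 3.88 in Cis and between 3.28 and 4.62 in Trans. By gene, r was 0.608 for Trem2, 0.599 for Gpnmb and 0.586 for Ccr2. Gpnmb, Itgax and Ccr2 had mean levels of 2.12, 2.73 and 2.66, under the array medians. With the Kupffer cell markers r was -0.105 (adjusted permutation p = 0.852). The mean of 7 of these 8 markers was lower in the Trans livers when compared with Saturated, where that of Cd36 was higher. All 7 measured markers of lipid-associated and monocyte-derived macrophages had a higher mean in Trans than in Saturated, as Cd36 had. Their median difference was 0.143, and 9705 of all 18820 genes had a higher mean in that comparison. The part of macrophages in the level of Cd36 was not tested.

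The other relations that passed were negative. Fabp1 ran opposite to the adipocyte marker mean (r = -0.769, rho = -0.658, adjusted permutation p = 0.00551 and 0.0153), with r = -0.193 within Saturated, -0.798 within Cis and -0.92 within Trans, and -0.51 without Cis replicate 3 and Trans replicate 4. By gene it was strongest with Retn (r = -0.739), whose mean level was 2.49, and Car3 went the other way (r = 0.368). The mean also holds Pck1 (r = -0.423), which stands on the hepatocyte list too. Slc27a2 ran opposite to cholesterol synthesis (r = -0.638, adjusted permutation p = 0.0389, rho = -0.537, adjusted permutation p = 0.127). Its r was -0.704 within Saturated, -0.833 within Cis and -0.3 within Trans, and -0.711 with the diet means kept (adjusted permutation p = 0.00231). It was -0.347 without Cis replicate 7 and Saturated replicate 2, the livers farthest from the Slc27a2 median, on which the pooled r rested in part. Without Saturated replicate 2 alone it was -0.464 (adjusted permutation p = 0.225), and -0.053 within Saturated. With the clock difference, the mean of activator genes such as Arntl minus that of repressor and output genes such as Per2, no member passed. That difference lay between -1.26 and 2.83 in the Saturated livers, between -1.26 and 1.55 in Cis and between -1.41 and 3.15 in Trans.

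**Figure D5:**
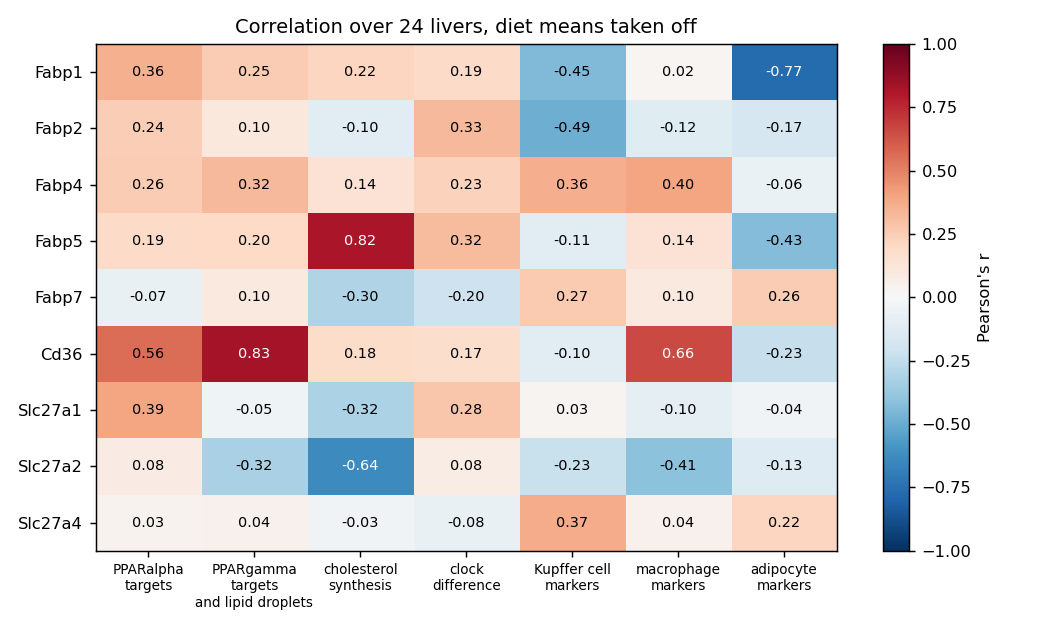
Pearson's r of each member (rows of the grid) with the mean of each of 7 gene lists (columns), over 24 livers with the diet means taken off. Red is positive and blue negative. The darkest cells are Cd36 with PPARγ targets and lipid droplets (0.83), Fabp5 with cholesterol synthesis (0.82) and Fabp1 with adipocyte markers (-0.77).

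The genes most like Fabp4 within diets were Mest (r = 0.818), Capn2 (0.704), Stx7 (0.688), Vps29 (0.685) and Rpp30 (0.682), and those most like Fabp7 were Klhl36 (0.675), Slc7a8 (0.656), Man2b2 (0.646), Txnip (0.646) and Dhrs4 (0.638). Fabp4 correlated at -0.063 with the adipocyte markers and at 0.363 with the Kupffer cell markers (adjusted permutation p = 0.868 and 0.397). By gene, its r with 9 endothelial markers ran from 0.0435 for Stab2 to 0.482 for Lyve1.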

How the data were processed

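Each of the 24 livers was hybridised to 1 array. Scans were summarised by the authors with RMA in Bioconductor. The deposited table gives log2 values, 1 per probe set and liver, after background correction, quantile normalization and summary over probes. The genome build behind the probe sets is not given in the sources used here. All 24 columns were used. Groups came from the sample titles. Genes were named from a table pairing probe sets with genes: 21218 probe sets list 1 gene, 1881 several and 12457 none. One linear model of the 3 diets was fitted to all 35556 probe sets (R 4.3.3, limma 3.58.1, lmFit and eBayes, 21 residual degrees of freedom), two-sided, with Benjamini-Hochberg adjustment and a threshold of 0.05. The procedure was tested on simulated data. Correlations were computed in Python 3.11.15 (numpy 2.4.6, scipy 1.17.1) with 100000 permutations of livers within diets. No filter on low values was applied, so all 9 members were tested. The number of arrays limits the precision. The members, the lists and the rule for named genes (all members, the 8 other family genes, up to 4 genes per list by smallest p and the 5 genes most like Fabp5, Fabp4, Fabp7 and Cd36) were chosen with earlier results of these data known. Alternatives covered moderation, a signal minimum of 20, fitting only the groups compared, replicate blocks, array weights, normalization, centring, Tukey's test, exact permutation, the mean over probe sets, a fold of 1.5 and left-out livers. Correlations with list means without Saturated replicate 2, or with the diet means kept, were added after seeing the data.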

Additional observations from a re-analysis of the deposited data

Results flagged for a closer look

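In 33 sets of 8 livers (9 members and the other probe sets of Fabp5 in each diet), 5 held a liver whose gap to its nearest neighbour took up an unusually large share of the group's range (over 0.526, Dixon's test). Chance gives such a gap in about 1 of 20 sets. The 33 sets are not independent, so the 5 cannot be weighed against that rate. Saturated replicate 2 was flagged in the first and the second probe set of Fabp5, which correlated at 0.992. Fabp5 in Saturated replicate 2 was 3.60 where the other 7 livers lay between 6.25 and 7.52, and its second probe set was 3.44 there where the others lay between 6.25 and 7.58. Cis replicate 6 was the highest Cis liver in Cd36, at 9.24 against 8.32 to 8.73, and in Slc27a1, at 4.84 against 4.52 to 4.66. Fabp1 in Cis replicate 3 was 11.75 where the other Cis livers lay between 11.97 and 12.08. None of the causes was tested.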

How the results depend on the processing

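Over 38 results and 37 alternative settings, 1239 of 1264 values were classed as unchanged. For a difference this means the same direction and the same side of the threshold. A count of members or relations was also classed so when it moved only slightly, such as 6 or 4 relations with lists instead of 5. In limma and Tukey's test, 0 of 9 members passed in any comparison under every setting with all livers. Taking an unadjusted exact permutation test (12870 splits of 8 against 8) gave 5 members for Trans against Saturated (Fabp2, exact p = 0.00218, Slc27a4, exact p = 0.00482, Cd36, exact p = 0.0165, Slc27a1, exact p = 0.0421, and Slc27a2, exact p = 0.0454) and 2 for Cis against Saturated (Slc27a4, exact p = 0.0457, and Fabp5, with a difference of -1.70, exact p = 0.00839). That setting changed both the test and the adjustment. Unadjusted limma gave 5 members for Trans against Saturated (7.32% of all probe sets), counting Fabp5 but not Slc27a2. For Cis against Saturated it gave 3 (6.57% of all), counting also Fabp7. The exact test was run only on the members and the Fabp5 probe sets, so its counts have no share over all probe sets beside them. Leaving out single livers gave 0 to 1 members for Cis against Saturated, the 1 being Fabp5 without Saturated replicate 2, and its difference ranged from -2.11 to -1.47. Over these omissions the adjusted p of Fabp5 ranged from 0.0382 to 0.712 there. The differences that changed sign were all near 0: Fabp1 for Trans against Cis (-0.0043 to 0.0619), Slc27a4 for Trans against Cis (-0.0884 to 0.0191) and Fabp4 for Cis against Saturated (-0.0313 to 0.18). With the diet means kept, 4 pairs of members passed instead of 2, and 6 relations with lists instead of 5. Without Saturated replicate 2 these counts were 2 and 4.

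Of 24 pairs of same-numbered livers, 10 deviated from their diet means together with a correlation over 0.1 (median 0.042, from -0.0959 to 0.288). Pairs of unlike number were not compared, so whether the number stands for anything shared was not tested. With a replicate block, 0 members passed and Fabp5 differed by -1.70 for Cis against Saturated (adjusted p = 0.467) and by -1.04 for Trans against Saturated (adjusted p = 0.616). With 8 livers per diet and the spread of Fabp5, its intervals run nearly 2 log2 units wide.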
